A study of Callithrix jacchus with 6 samples.

Results

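The genes described here are the 75 genes, of 32323 listed, that were among the most abundant transcripts of a marmoset hepatic progenitor cell (MHPC) line and that were not among the most abundant transcripts of adult marmoset liver. All listed genes were ranked by the mean FPKM of the 3 MHPC libraries and, separately, by the mean FPKM of the 3 adult liver libraries, highest first, and a gene was taken when it stood at rank 200 or better in MHPCs and at a rank worse than 500 in adult liver. FPKM is the number of reads of a gene per kilobase of its length and per 1000000 reads of the library, so levels can be compared between genes. The members were thus chosen by measured values of all 6 libraries, and the MHPC and adult liver levels and the differences between them are given as a description, without a test. Of the 75 members, 51 have a gene symbol in the table of names used here and 24 are known by identifier only.

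RNA of *Callithrix jacchus*, the common marmoset, was sequenced from 3 MHPC samples and 3 adult livers, and no animal or culture was treated. MHPCs are clone 1, a single clone grown from fetal liver cells that had been immortalized with a lentivirus carrying SV40 large T antigen and EGFP, so the 3 MHPC libraries are passages of 1 clone and their spread holds no difference between animals. The adult livers are whole tissue from 3 different animals. The sample labels give passages 15 to 30 for the line and ages of 5 to 10 years for the livers, the design text gives passages 10 to 30, and no label ties a passage or an age to a numbered library. The study's methods state other passages and ages, some of them outside the ranges of the sample labels, so the ages and passages are uncertain. The libraries held 6501285 to 8450454 reads in MHPCs and 8670017 to 9682046 reads in adult liver, as recovered from the steps between the FPKM values. Statements on error cover the spread between these samples only. Passage, culture, clone, fetal origin, immortalization and tissue makeup cannot be told apart from the difference between the groups. The study describes an XY line and livers of male and female animals, and no sex is tied to a numbered library here.

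Many of the named members encode proteins of the extracellular matrix and the cytoskeleton. Fibrillar collagens are folded in the endoplasmic reticulum with the help of a dedicated chaperone and are then secreted into the extracellular matrix, which cells grip through receptors joined to actin filaments. Tropomyosins run along these filaments, nonmuscle myosin pulls on them and alpha-actinins link them, and together they form the contractile stress fibers of spread cells on a dish. In adult liver most RNA comes from hepatocytes, which make plasma proteins, whereas matrix is made mainly by stellate cells and portal fibroblasts.

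The oligonucleotides below are the RT-PCR primers that the study designed for 2 of the members, PKM and CD44, which it also counts among its progenitor markers. They are shown because they are the designed sequences that name members directly. The PKM pair carries the name M2pk in the study, after the M2 form of the enzyme, while the FPKM value of PKM covers the gene as a whole. Each is 20 bases long and is written 5′ to 3′ in lower case.
M2pk forward: atggctgacacattcctgga
M2pk reverse: ggcgttatccagcgtgattt
Cd44 forward: accatttcaaccacaccacg
Cd44 reverse: agttgcctggattgtgcttg

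As a group, the members made up a large part of the MHPC transcriptome and a small part of that of adult liver. Their share of the summed FPKM was 8.78%, 9.11% and 9.13% for MHPC libraries 1, 2 and 3, and for the livers in the same order it was 0.781%, 0.682% and 0.671%. The means were 9.0% ± 0.195 in MHPCs and 0.712% ± 0.0607 in adult liver (SD, n = 3 each). Without the 100 most abundant adult liver genes they were 9.42% in MHPCs and 1.55% in adult liver. The median member stood at 478, 478 and 517 FPKM in the MHPC libraries and at 67.0, 68.3 and 60.1 FPKM in the livers. The median over the 13620 genes tested was 13.6 to 14.5 FPKM in MHPCs and 5.62 to 6.90 FPKM in adult liver. Most members were therefore not absent from adult liver, and 74 of 75 had an FPKM of at least 1 in all 3 livers, the exception being TNC. In bulk tissue, fewer cells of a type and less RNA per cell cannot be told apart.

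**Figure D1:**
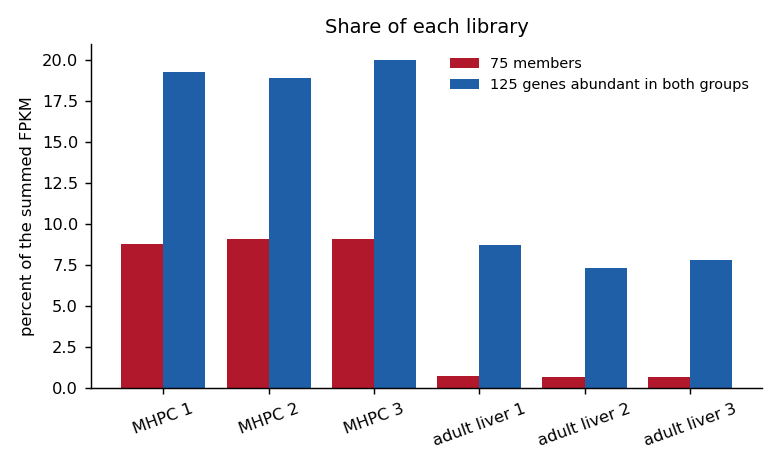
Percent of the summed FPKM of each library (y axis) held by the 75 members (red bars) and by the 125 genes that reach rank 200 or better in MHPCs and rank 500 or better in adult liver (blue bars), 1 pair of bars per library. The members hold 8.78% to 9.13% in MHPCs and 0.671% to 0.781% in the livers, and the genes abundant in both hold 18.9% to 20% and 7.33% to 8.73%.

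The distance between the groups varied widely from member to member. The ratio of the MHPC mean to the adult liver mean ran from 2.59 for PABPC1 to 2166 for TNC, with a median of 9.27, and it was at least 10 for 35 members and at least 50 for 14. In rank, 45 members stood beyond 1000 in adult liver, 26 beyond 2000 and 8 beyond 5000. Limma on log2(FPKM + 1) called all 75 members higher in MHPCs, where it called 65.2% of the 13620 genes tested. In all 75 members every MHPC library lay above every liver library, as in 67.2% of the genes tested. Because the rule used the same contrast, nothing is read from these counts.

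FPKM values are relative to the whole library, and the deposited values of the genes tested were higher in MHPCs by a median of 1.09 on the log2 scale. The members' median log2 difference was 3.18, within 1.37 to 9.06. After scaling with median-of-ratios size factors, which set the median of the genes tested to -0.01, the members' median was 1.87, within 0.06 to 8.21. On the size factor scale 66 of 75 members were called higher, beside 29.9% of the genes tested, and 70 did not overlap between the groups, beside 34.2%. The named members among the 9 that lost the call were PABPC1, ARPC2, MICOS10 and YBX3. No member turned its direction there, and nothing is read from these counts either, since the rule used the same contrast. The 125 genes abundant in both groups had a median log2 difference of 1.25 as deposited and of -0.06 with size factors.

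**Figure D2:**
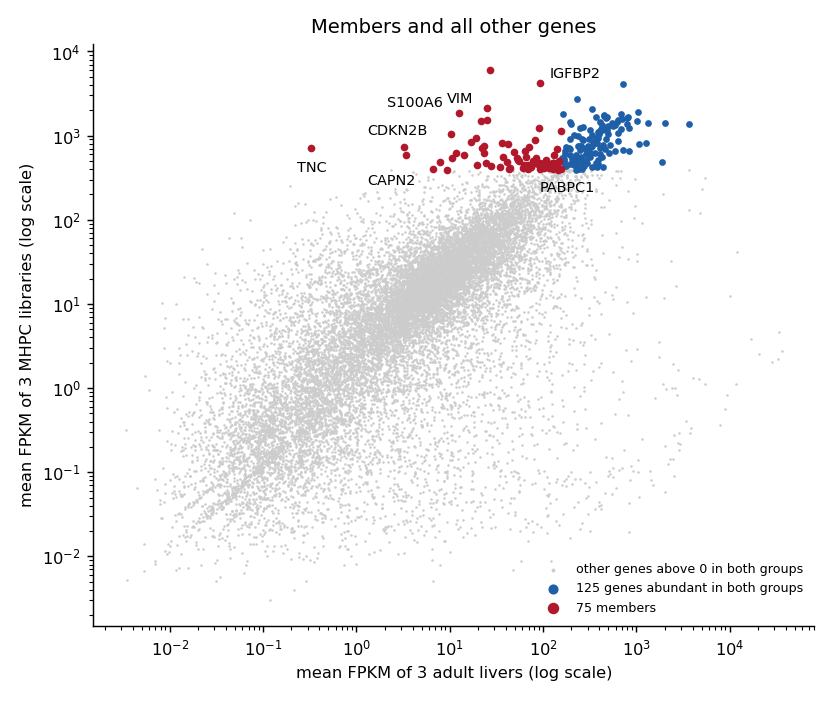
Mean FPKM of the 3 MHPC libraries (y axis) against mean FPKM of the 3 adult livers (x axis), both on log scales, for genes above 0 in both groups. Members are red, the 125 genes abundant in both groups are blue and all other genes are grey. The members form a band at the top that runs from TNC at 0.327 FPKM in adult liver to PABPC1 at 156 FPKM.

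The matrix members had some of the widest gaps between the groups. COL1A1, a chain of collagen I, stood at 1257, 1799.9 and 1453 FPKM in MHPCs 1, 2 and 3 and at 34.4, 19.8 and 10.4 FPKM in adult livers 1, 2 and 3. COL3A1, the chain of collagen III, stood at 399.7, 684 and 558 FPKM in MHPCs and at 20.7, 4.79 and 5.99 FPKM in the livers. COL6A2, a chain of the microfibrillar collagen VI, stood at 643, 958 and 952 FPKM in MHPCs and at 23.1, 14.7 and 12.7 FPKM in the livers. For each of these collagen chains the lowest MHPC value was far above the highest liver value.

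SERPINH1, the endoplasmic reticulum chaperone of procollagen, was the steadiest of the matrix members across MHPC libraries, at 928, 962 and 946 FPKM. Its liver levels were 30.1, 21.7 and 6.22 FPKM, and the value in adult liver 3 was the lowest of the 3, as it was for COL1A1. THBS1, the matricellular glycoprotein thrombospondin 1, stood at 778, 852 and 791 FPKM in MHPCs and at 6.30, 97.5 and 3.98 FPKM in the livers. Adult liver 2 alone sets the liver mean of THBS1, which was 35.9 FPKM with it and 5.14 FPKM without it. The log2 differences of these 5 matrix members lay between 5.60 and 6.19 as deposited and between 4.31 and 4.91 with size factors. TNC, the matrix glycoprotein tenascin-C, which was not on the matrix list, had the widest gap of all members. It stood at 712, 730.0 and 682 FPKM in MHPCs and at 0.345, 0.286 and 0.350 FPKM in the livers, where 22, 17 and 20 reads carried the value.

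The list of matrix genes held 34 symbols, of which 21 could be matched and tested. Of the 16 that were not members, 11 were called higher in MHPCs and 1 lower as deposited, and 9 higher and 3 lower with size factors. Of all genes tested, 65.2% were called higher and 15.4% lower as deposited, and 29.9% and 32.1% with size factors. The count of matrix genes called higher thus lay near the background as deposited and above it with size factors. Their median log2 difference was 3.92 beside 1.09 over the genes tested, and 2.63 beside -0.01 with size factors. COL5A1, a chain of collagen V, was among those higher, with a log2 difference of 6.92 ± 0.31 (SE; limma adjusted p = 2.8e-06). It stood at 318, 502 and 356 FPKM in MHPCs, just short of the MHPC limit, and at 1.11 to 3.56 FPKM in adult liver. BGN, the small proteoglycan biglycan, was the gene called lower, at 0.617 to 0.791 FPKM in MHPCs and 46.4 to 115 FPKM in adult liver, with a log2 difference of -5.24 ± 0.35 (SE; limma adjusted p = 1.4e-05). DCN, the related proteoglycan decorin, stood at 9.65, 41.9 and 29.5 FPKM in MHPCs and at 107, 34.4 and 42.1 FPKM in the livers and was not called as deposited (limma adjusted p = 0.11), and with size factors it was called lower in MHPCs at a log2 difference of -2.45 (limma adjusted p = 0.0097). The matrix genes thus did not all lie on one side.

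The actin cytoskeleton gave more members than any other list, with 10 of 22 tested genes. All 4 genes of the tropomyosin family were members. TPM1 stood at 558, 465 and 519.6 FPKM in MHPCs and at 54.7, 72.8 and 35.9 FPKM in the livers. TPM2 stood at 439.5, 344 and 422 FPKM in MHPCs and at 45.1, 42.1 and 42.8 FPKM in the livers. TPM3 and TPM4 lay in the same range in MHPCs, at 465 to 507 and 439 to 517 FPKM. In adult liver the family was less even, with TPM4 lowest at 13.9 to 39.1 FPKM and TPM3 highest at 76.1 to 92.3 FPKM, and these 2 ranges did not overlap. The rule set a lower bound on the family in MHPCs only, so nothing is read from its evenness there.

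MYH9, the heavy chain of nonmuscle myosin IIA, was the most abundant actin member, at 1005, 835 and 844 FPKM in MHPCs and 79.0, 84.6 and 81.4 FPKM in the livers. TAGLN, the actin-bundling protein transgelin of smooth muscle and myofibroblasts, stood at 864, 593 and 775 FPKM in MHPCs and at 38.7, 20 and 10.4 FPKM in the livers. Its relative TAGLN2 stood at 609 to 684 FPKM in MHPCs and at 36.2 to 81.5 FPKM in adult liver. The ranges of TAGLN and TAGLN2 in adult liver overlapped. The alpha-actinins ACTN1 and ACTN4, which crosslink actin filaments, stood at 397 to 442 and 416 to 472 FPKM in MHPCs and at 36.0 to 91.2 and 45.3 to 73.3 FPKM in adult liver. ARPC2, a subunit of the Arp2/3 complex that starts branched filaments, had the smallest log2 difference of the group, 1.90 as deposited and 0.58 with size factors.

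Among the 12 tested actin genes that were not members, 11 were called higher in MHPCs as deposited and none lower, and with size factors 6 were higher and 1 lower. Among all genes tested, 65.2% were higher and 15.4% lower as deposited, and 29.9% and 32.1% with size factors. ACTA2, the smooth muscle actin, was among those higher, at 496, 271 and 352 FPKM in MHPCs and 21.8, 6.28 and 4.14 FPKM in the livers, with a log2 difference of 5.26 ± 0.54 (SE; limma adjusted p = 9.7e-05). MYL9, a regulatory light chain of myosin, was not called as deposited, with 163 to 179.7 FPKM in MHPCs, 129 to 154 FPKM in adult liver and a log2 difference of 0.27 ± 0.12 (SE; limma adjusted p = 0.074). With size factors its direction turned, and it was called lower in MHPCs at a log2 difference of -1.04 (limma adjusted p = 0.00032). MYL6, an essential light chain, is listed at 0 in all 6 libraries although most cells use it, and this is not read as absence. Reads of near-identical copies and of overlapping genes were not separated here, which makes uncertain the values of the tropomyosins, RPL36A, NPM1 and RAN.

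LASP1, a focal adhesion protein that binds actin, and the calpains, calcium-dependent proteases that cut cytoskeletal proteins, stand beside this group without being on its list. LASP1 stood at 373 to 433 FPKM in MHPCs and 103 to 140.1 FPKM in adult liver. CAPN2, the catalytic subunit of m-calpain, stood at 408, 417 and 385 FPKM in MHPCs and at 6.95, 7.25 and 5.44 FPKM in the livers. CAPNS1, the small subunit that it shares with another calpain, stood at 592, 575 and 602 FPKM in MHPCs and at 141, 139.9 and 113 FPKM in the livers. In MHPCs the means were 590.0 FPKM for CAPNS1 and 404 FPKM for CAPN2, and in adult liver they were 131 and 6.55 FPKM. The rule required a high rank of both genes in MHPCs and set no lower bound in adult liver. Nothing is therefore read from their closer levels in MHPCs.

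**Figure D3:**
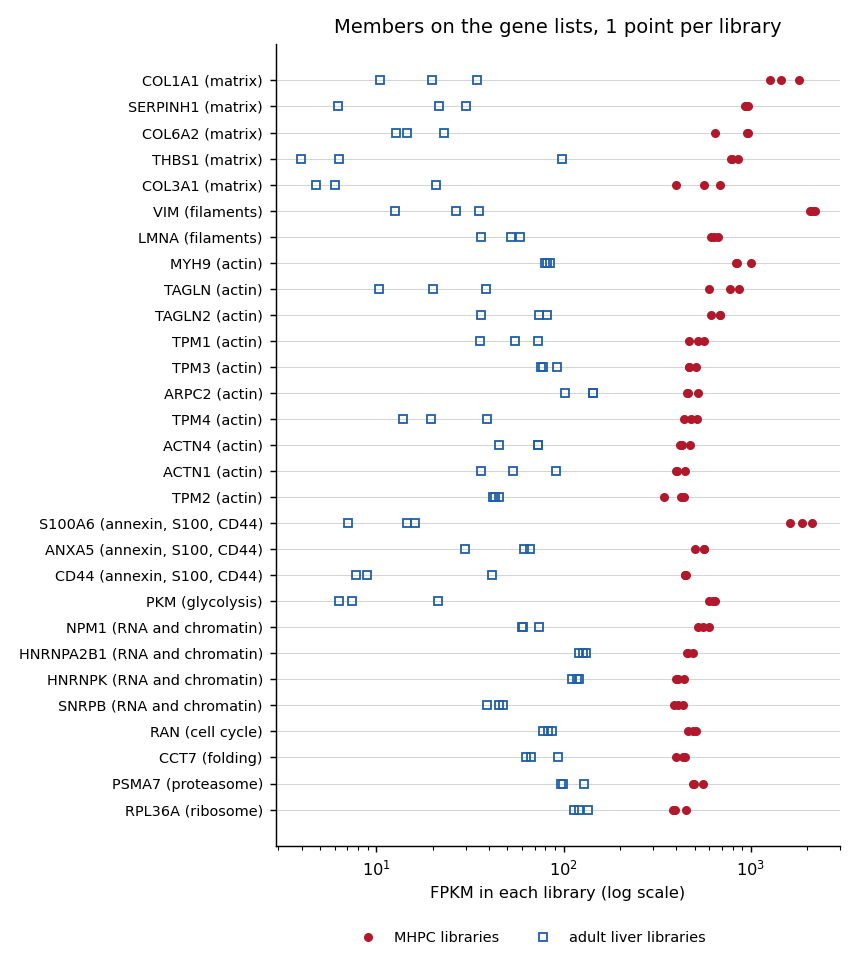
FPKM of the 29 members on a gene list in each library (x axis, log scale), with MHPC libraries as filled red circles and adult livers as open blue squares, ordered by list. In each row the 3 MHPC points lie to the right of the 3 liver points. The liver points of THBS1, COL3A1, SERPINH1 and CD44 are spread widely, and those of MYH9, TPM2 and HNRNPK lie close together.

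VIM, the intermediate filament protein of mesenchymal cells, stood at 2052, 2122 and 2189 FPKM in MHPCs and at 26.8, 35.5 and 12.5 FPKM in the livers. LMNA, which encodes the nuclear lamins A and C, stood at 614, 636 and 663 FPKM in MHPCs and at 58.7, 36.0 and 52.4 FPKM in the livers. Both were lowest in MHPC 1. TUBB3, a beta-tubulin best known from neurons, stood at 422, 412 and 455 FPKM in MHPCs and at 3.18, 70.2 and 8.70 FPKM in the livers, and its liver mean was 27.3 FPKM with adult liver 2 and 5.94 FPKM without it. Tubulin genes are close relatives, and reads shared between them were not resolved here.

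S100A6, a small calcium-binding protein abundant in dividing cells, stood at 1622, 1880.1 and 2103 FPKM in MHPCs and at 16.1, 7.11 and 14.6 FPKM in the livers. ANXA5, a calcium-dependent membrane-binding annexin, stood at 502, 563 and 560.2 FPKM in MHPCs and at 66.2, 61.4 and 29.9 FPKM in the livers. The closely related gene ANXA2 fell outside the members by its liver rank of 484, which was 653 without adult liver 2, with 102 to 239 FPKM in the livers and 1693 to 1924 FPKM in MHPCs. All told, 9 of the 10 tested genes of the annexin and S100 list that were not members were called higher in MHPCs as deposited and 1, CD81, was called lower, and with size factors 7 were higher and 1 lower. The genes tested were called higher in 65.2% of cases as deposited and in 29.9% with size factors. The list also holds other genes, CD44 and CD81 among them, so its counts are not of annexins and S100 proteins alone.

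The 2 members for which primers are given above are also 2 of the 16 progenitor markers that the study names. CD44, the cell surface receptor for hyaluronan, stood at 443, 443 and 451 FPKM in MHPCs, the narrowest spread of any member, and at 7.82, 41.5 and 8.87 FPKM in the livers. PKM, the pyruvate kinase gene that replaces the liver form in growing cells, stood at 643, 596 and 627 FPKM in MHPCs and at 6.32, 21.3 and 7.43 FPKM in the livers. CD44 and PKM were both highest in adult liver 2, and without it their liver means fell from 19.4 to 8.34 and from 11.7 to 6.88 FPKM. PKM was the only member on the list of 15 tested glycolysis genes, and 13 of the other 14 were called higher in MHPCs as deposited, against 6 higher and 3 lower with size factors. Among all genes tested the shares called higher were 65.2% and 29.9%, and those called lower were 15.4% and 32.1%.

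The remaining progenitor markers that could be matched lay far lower. NCAM1, a neural adhesion molecule, stood at 111, 99.9 and 88.7 FPKM in MHPCs and at 6.54, 6.52 and 6.08 FPKM in the livers, a log2 difference of 3.77 ± 0.14 (SE; limma adjusted p = 1.4e-06). KRT7, a keratin of bile duct cells, stood at 39.7, 27.8 and 32.3 FPKM in MHPCs and at 20.7, 8.18 and 9.63 FPKM in the livers, a log2 difference of 1.40 ± 0.34 (SE; limma adjusted p = 0.0063), which was 0.15 with size factors. EPCAM, an epithelial adhesion molecule, had 4 reads over the 3 MHPC libraries and 1.30 to 9.41 FPKM in the livers. AFP, the fetal plasma protein, and KIT, a receptor of stem cells, had 0 reads in all 3 MHPC libraries, which allows at most 0.0663 and 0.0260 FPKM (3 reads over the 3 libraries, counting error only). Both gene models took up reads in all 3 livers, AFP at 2.56, 0.275 and 1.14 FPKM and KIT at 2.49, 0.884 and 1.46 FPKM. Of the 9 markers matched, 7 were tested, 2 of them members. Of the 5 others, 4 were called higher in MHPCs and EPCAM lower as deposited, and 3 higher and 1 lower with size factors, beside 65.2% and 29.9% of the genes tested called higher on these scales. KRT7 was the marker that lost its call. The tested markers whose values are not printed here were thus called higher in MHPCs on both scales. The median log2 difference of the 5 was 2.73 as deposited and 1.58 with size factors.

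Cell type markers were set beside the members because the line's label names a progenitor of liver epithelium. Of the 8 mesenchymal or stellate cell markers matched, 4 are members, namely VIM, COL1A1, COL3A1 and TAGLN, and the list summed to 5339 to 6034 FPKM in MHPCs and 96.1 to 274 FPKM in adult liver. The 4 members, which the rule chose for being high in MHPCs, supplied 4573 to 5199 FPKM of the MHPC sum. Of the 4 other markers, 3 were called higher in MHPCs and none lower as deposited, and with size factors 2 were higher and DCN was lower, which lies near the 65.2% of genes tested called higher as deposited and compares with 29.9% with size factors. The 10 hepatocyte markers matched summed to 135 to 147 FPKM in MHPCs, of which TF, the plasma protein transferrin, made up 124 to 133 FPKM, and to 103351 to 106125 FPKM in adult liver. PTPRC and CD163, markers of blood cells and macrophages, had 0 reads in all MHPC libraries. ITGAX, an integrin chain of myeloid cells, was nonetheless a member by its symbol, at 553, 517 and 556 FPKM in MHPCs and 45.6, 127 and 81.1 FPKM in the livers. With both blood cell markers at 0, the identity of the gene behind this symbol was not tested.

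Secreted and signaling members come next by role. IGFBP2, which binds insulin-like growth factors, was the most abundant member with a symbol, at 3802, 4473 and 4269.8 FPKM in MHPCs and 118, 88.7 and 73.9 FPKM in the livers. LGALS3BP, a secreted glycoprotein that binds galectins, stood at 1060.0, 1079.6 and 974 FPKM in MHPCs and at 13.2, 9.26 and 8.51 FPKM in the livers. FSTL1, a secreted follistatin-like glycoprotein, stood at 382, 483 and 464 FPKM in MHPCs and at 49.9, 97.4 and 62.1 FPKM in the livers. These secreted members thus span a range from IGFBP2 at rank 2 in MHPCs to FSTL1 at rank 168.

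IFI6, an interferon-inducible protein, stood at 1189, 1319 and 1207 FPKM in MHPCs and at 121, 48.9 and 98.5 FPKM in the livers. CDKN2B, the p15 inhibitor of cyclin-dependent kinases, stood at 817, 699.8 and 672 FPKM in MHPCs and at 5.79, 2.35 and 1.46 FPKM in the livers. Only 53, 20 and 12 reads carried the liver values of CDKN2B, so the ratio of 228 between the means rests on few liver reads. GNAI2, an inhibitory G protein alpha subunit, stood at 456 to 469.9 FPKM in MHPCs and 86.4 to 116 FPKM in adult liver. PLP2, a small membrane protein, stood at 477, 477 and 507 FPKM in MHPCs and at 19.2, 71.4 and 31.9 FPKM in the livers.

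The next members serve RNA handling, protein folding and growth. NPM1, the nucleolar protein nucleophosmin, stood at 552, 523 and 593 FPKM in MHPCs and at 74.0, 60.7 and 60.1 FPKM in the livers. NOP56, a core protein of the particles that methylate ribosomal RNA, stood at 448, 377 and 456 FPKM in MHPCs and at 32.9, 36.0 and 36.0 FPKM in the livers, a ratio of the means of 12.2. SNRPB, a core protein of the spliceosome, stood at 433, 389 and 407 FPKM in MHPCs and at 39.0, 45.4 and 47.6 FPKM in the livers. These 3 had the widest gaps among the RNA-handling members. The RNA-binding proteins HNRNPA2B1, HNRNPK and HNRNPL stood at 399 to 492 FPKM in MHPCs and at 111 to 132 FPKM in adult liver, and HNRNPAB at 475 to 507 and 77.0 to 80.7 FPKM.

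RAN, the small GTPase of nuclear transport and spindle assembly, stood at 489, 459 and 506 FPKM in MHPCs and at 86.6, 82.5 and 77.5 FPKM in the livers. It was the only member on the list of DNA replication and cell cycle genes. The other 21 tested genes of that list did not reach rank 200 in MHPCs, but 20 of them were called higher there and none lower, or 20 higher and 1 lower with size factors, with a median log2 difference of 5.16 as deposited and of 3.93 after scaling. Over the genes tested 65.2% and 29.9% were called higher on these scales, with medians of 1.09 and -0.01. CCT7, a subunit of the chaperonin that folds actin and tubulin, CDC37, which brings kinases to HSP90, and PSMA7, a proteasome subunit, stood at 399 to 557 FPKM in MHPCs and 62.7 to 128 FPKM in adult liver.

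RPL36A was the only cytosolic ribosomal protein gene among the members, at 385, 393 and 449 FPKM in MHPCs and 135, 114 and 121 FPKM in the livers. Of the 46 ribosomal protein genes matched, 38 fell among the genes abundant in both groups. As deposited, 44 of the 45 that were not members were called higher in MHPCs and none lower, with a median log2 difference of 1.28, whereas with size factors 3 were higher and 6 lower, with a median of -0.04. Both medians lay near those of the genes tested, 1.09 and -0.01, of which 65.2% were called higher as deposited and 29.9% higher and 32.1% lower with size factors. PABPC1, the protein that binds poly(A) tails, stood nearest to the liver limit, at 395, 395 and 425 FPKM in MHPCs and 149, 162 and 158 FPKM in the livers. Its log2 difference was 1.37 before scaling and 0.06 with size factors. The difference of PABPC1, the smallest of all members as deposited, thus nearly vanished with size factors. That of the matrix member COL6A2 moved by a similar amount, from 5.60 to 4.31. ERH, YBX3, NUDC and MICOS10, of varied function, stood at 373 to 550.0 FPKM in MHPCs and 78.2 to 171 FPKM in adult liver.

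The most abundant gene of the MHPC line is one of the 24 members without a symbol. ENSCJAG00000012495 stood at 5771, 5710.3 and 6371 FPKM in MHPCs, or 0.943%, 0.940% and 1.02% of the summed FPKM, and at 39.2, 26.7 and 16 FPKM in the livers. ENSCJAG00000015518 stood at 1242, 1796 and 1582 FPKM in MHPCs and at 39.2, 18.4 and 17.4 FPKM in the livers. ENSCJAG00000009082, the unnamed member with the lowest liver mean, stood at 459.9, 648 and 662 FPKM in MHPCs and at 4.03, 2.82 and 3.38 FPKM in the livers, on 48 liver reads in all. The unnamed members had a median ratio between the means of 8.26. Their median length was 794 bases against 1544 bases for the named members.

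Members differed in length from the other abundant genes of the line, a measure the rule did not use directly. Their median length, recovered from the FPKM steps, was 1391 bases, with the middle of the distribution between 793 and 2006.5 bases. The 125 genes abundant in both groups had a median length of 783 bases and the genes tested a median of 1743.5 bases. Recovered lengths are lower bounds, because only ratios of reads to length are seen.

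Within MHPCs the members varied little. Their median SD of log2(FPKM + 1) was 0.0814 over the 3 MHPC libraries and 0.330 over the 3 livers, or 0.215 without adult liver 2. The same medians were 0.118 and 0.314 over the genes tested and 0.0924 and 0.246 over the 125 genes abundant in both groups, so the spread in MHPCs was close to that of other abundant genes of the line. The SD was larger in adult liver for 64 of 75 members, or 85.3%, beside 81.8% of the genes tested. The highest MHPC value exceeded the lowest by a median factor of 1.11 and by at least 1.5 for 2 members, COL3A1 at 1.71 and ENSCJAG00000001877 at 1.54. The latter stood at 369, 567 and 517 FPKM in MHPCs and at 11.6, 7.71 and 4.08 FPKM in the livers.

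What variation there was among the MHPC libraries divided matrix from actin members. All 5 matrix members were lowest in MHPC 1 and highest in MHPC 2. Over all 21 tested genes of the matrix list, 14 were lowest in MHPC 1, 17 were highest in MHPC 2 and 0 were highest in MHPC 1. In contrast, 8 of the 10 actin members were highest in MHPC 1, and 17 of the 22 tested genes of the list were highest in MHPC 1. Among all genes tested, 38.3% were highest in MHPC 1, 30.7% were highest in MHPC 2 and 30.7% were lowest in MHPC 1. The actin members were lowest in MHPC 2 in 7 of 10 cases, near the 57.3% of all members and the 70.4% of the genes abundant in both groups that were lowest there. With size factors the matrix members remained lowest in MHPC 1 in 5 of 5 cases and were highest in MHPC 2 in 3, and 7 actin members were highest in MHPC 1. COL3A1 and TAGLN show the split, COL3A1 with 399.7 FPKM in MHPC 1 and 684 in MHPC 2, and TAGLN with 864 and 593. Each library is a single passage that the labels do not identify, so these orders are values of 3 libraries without a test.

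**Figure D4:**
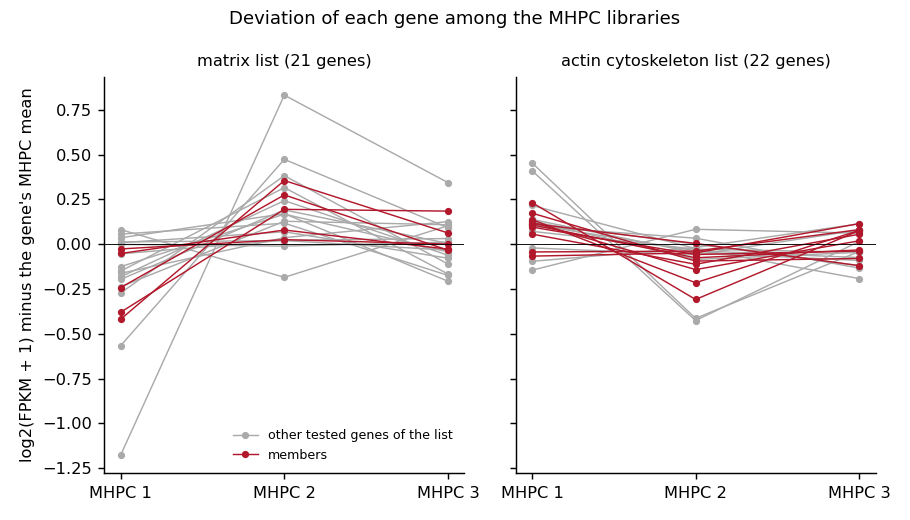
Deviation of log2(FPKM + 1) in each MHPC library from the gene's mean over the 3 MHPC libraries (y axis), for the 21 tested genes of the matrix list and the 22 of the actin list. Members are red, other genes of the list are grey, and a line joins the values of 1 gene, with no order among the libraries. All 5 matrix members lie lowest in MHPC 1 and highest in MHPC 2, and 8 of the 10 actin members lie highest in MHPC 1.

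The 3 livers differed from each other far more. The highest liver value exceeded the lowest by a median factor of 1.55 over the members, by at least 2 for 27 of them and by up to 24.5 for THBS1. A value at least 2 times that of both other livers was found in adult liver 2 for THBS1, TUBB3, CD44, PKM, PLP2 and ENSCJAG00000006384, and in adult liver 1 for COL3A1, CDKN2B, ENSCJAG00000009940 and ENSCJAG00000015518. No member had such a value in adult liver 3. The liver mean fell by over 1.5 times without its highest liver for 9 members, which besides THBS1, TUBB3, CD44 and PKM were PLP2, from 40.8 to 25.5 FPKM without adult liver 2, and, without adult liver 1, COL3A1 from 10.5 to 5.39, TAGLN from 23.02 to 15.2, CDKN2B from 3.2 to 1.91 and ENSCJAG00000009940 from 142 to 78 FPKM. Over the genes tested the shares with such a value were 5.93% in adult liver 1, 5.50% in adult liver 2 and 3.41% in adult liver 3. With size factors such a value was found for 3 members and 5.19% of the genes tested in adult liver 1 and for 8 members and 7.78% in adult liver 2.

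PTPRC, the marker of blood cells, was highest in adult liver 2 as well, at 8.46, 20.5 and 5.52 FPKM, while CD163 of macrophages stood at 41.0, 38.5 and 24.2 FPKM. The part of blood cells in the values of adult liver 2 was not tested.

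**Figure D5:**
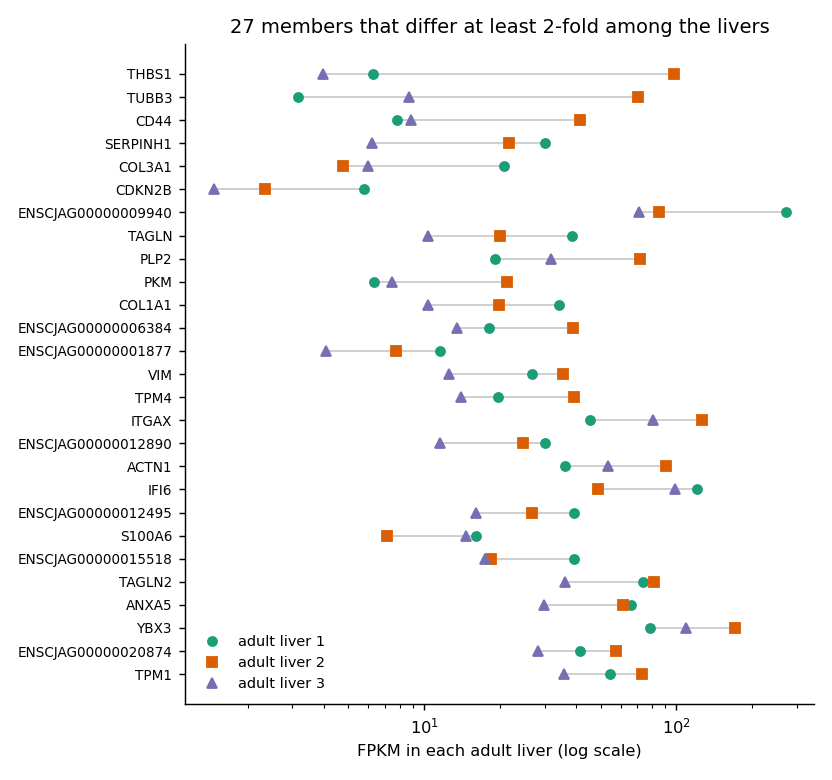
FPKM in each adult liver (x axis, log scale) for the 27 members whose highest liver value is at least 2 times the lowest, ordered by that ratio. Green circles are adult liver 1, orange squares adult liver 2 and purple triangles adult liver 3. THBS1, TUBB3 and CD44 at the top have 1 high value, in adult liver 2, and COL1A1, COL3A1, SERPINH1 and TAGLN are highest in adult liver 1.

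The limits of the rule cut through a continuous range. Just inside the MHPC limit stood ENSCJAG00000000406 at rank 198 with 396 FPKM and ENSCJAG00000014372 at rank 199 with 396 FPKM, and just outside it stood ENSCJAG00000022056 at rank 201 with 395 FPKM and PDAP1 at rank 203 with 393 FPKM. Just inside the liver limit stood PABPC1 at rank 510 with 156 FPKM and ENSCJAG00000009799 at rank 521 with 154 FPKM, and just outside it stood ENSCJAG00000003810 at rank 500 with 159 FPKM and ANXA2 at rank 484 with 165 FPKM. When each library was left out in turn and the rule applied again, 65 of the 75 members were kept every time. The named members lost at least once were LASP1, PABPC1, RPL36A, TPM2 and CAPN2. Genes that entered without MHPC 1 included COL1A2, COL4A2 and COL5A1, and without MHPC 2 ACTA2, so the count of matrix and actin members also depends on single MHPC libraries.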

How the data were processed

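The authors sequenced RNA of 3 MHPC samples and 3 adult livers as single-end Illumina reads from NEBNext Ultra libraries, and the submitters' processing notes name TopHat2 2.0.9, Bowtie2 2.0.6 and HTSeq 0.6.1. The genome build and annotation release are not given in the sources used here. The authors deposited FPKM values for 32323 genes by Ensembl identifier, and each value depends on all other genes of its library. All columns were used. The kit as named does not mark strand, so a gene and its antisense partner cannot be told apart. The count test of the study does not suit this unit, so the deposited FPKM values were taken to log2(FPKM + 1), which understates the change of low genes.

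Genes with FPKM of at least 1 in at least 3 of 6 libraries (13620) were compared between the groups with limma 3.58.1 in R 4.3.3 (eBayes with trend, two-sided, Benjamini-Hochberg adjustment over all genes tested, threshold 0.05). Python 3.11.15 with numpy 2.4.6, pandas 2.3.3 and matplotlib 3.10.9 did the rest. Reads, lengths and library totals were recovered as the whole numbers that give back the FPKM values of all 21236 genes above 0, within 0.002 reads, and 99.63% to 99.72% of each total lay on listed genes. At this depth counting error is small for members in MHPCs, the lowest having 331 reads in a library, and large in adult liver for the 3 members with under 100 reads in all. The fit and the recovery were also run on simulated data. Those data held no general shift between the groups, so they do not check the fit under the shift seen here.

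A table paired 12816 identifiers with symbols, and of 391 symbols on the 17 gene and marker lists 247 were matched, so the lists are covered in part. Members and lists were chosen with earlier results of these data known. Genes named are the members with the 10 highest MHPC means, the 5 highest and 5 lowest liver means and the 3 largest SDs in each group, those at the rank limits, and members on a list. The other members and single list genes were named after their values were seen. Groups and numbers come from the labels. The replicate numbers do not pair samples. Alternatives were another pseudocount, filters, scalings, rank limits, each library left out, a replicate block, eBayes without trend and limma-voom on recovered reads. Limma-voom with size factors was added after seeing the data.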

Additional observations from a re-analysis of the deposited data

How the results depend on the processing

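All 75 members were called higher in MHPCs under the 16 alternatives, except that 66 were with median-of-ratios size factors and 69 with limma-voom and size factors. The rule chose the members by the same contrast in the same libraries, so these counts do not test them. Scaling moved the size of the differences. The members' median log2 difference of 3.18 became 3.40 after rescaling to a sum of 1000000, 2.80 with quantile normalization, 1.87 with size factors and 1.89 with limma-voom and size factors. Of the genes tested, 8878 were called higher and 2099 lower as deposited, against 5472 and 3561 with quantile normalization, 4079 and 4373 with size factors, and 4099 and 4426 with limma-voom and size factors. The number of members followed the limits by construction. It was 20 and 223 with MHPC rank limits of 100 and 400 and 123 and 45 with liver rank limits of 250 and 1000, and it ran from 74 to 81 with 1 library left out. The MHPC share of 9.0% became 9.42% without the 100 most abundant liver genes and 8.35% in recovered reads, and the liver share became 1.55% without those genes. The median SD of the members in MHPCs was 0.0922 with size factors and 0.0691 to 0.0849 with 1 library left out, and in adult liver 0.215 to 0.296, lowest without adult liver 2. With the replicate block 75 members and 8690 genes were called higher. The numbers were shared by separate cultures and animals, and the deviations of samples with 1 number correlated at -0.0127, -0.0019 and -0.0746, with 0 of 6 libraries correlating best with their own number. Depth limits the liver values of TNC, CDKN2B and ENSCJAG00000009082.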

Other observations

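The abundant genes of the line leaned towards MHPC 3, apart from the matrix and actin genes. Of the 75 members, 39 were highest in MHPC 3 and 43 lowest in MHPC 2, and of the 125 genes abundant in both groups 97 were highest in MHPC 3 and 88 lowest in MHPC 2. Of the 46 ribosomal protein genes 42 were highest in MHPC 3 and 40 lowest in MHPC 2. Among the genes tested, 30.9% were highest in MHPC 3 and 32.3% lowest in MHPC 2. With size factors the counts highest in MHPC 3 were 46 of the members and 101 of the genes abundant in both. These are orders of single libraries and were not tested.

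In adult liver the order of the members depended on the scaling. As deposited 36 members were highest in adult liver 1 and 29 in adult liver 2, and with size factors 26 and 45. The shares of the genes tested moved the same way, from 40.6% and 21.6% as deposited to 35.3% and 37.2% with size factors. Adult liver 3 held the highest value for 10 members as deposited and for 4 with size factors, beside 37.8% and 27.5% of the genes tested.

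Other lists gave few members or none. Their counts are read beside the genes tested, of which 65.2% were called higher and 15.4% lower as deposited, and 29.9% higher and 32.1% lower with size factors. The chaperone and folding list had 1 member, CCT7, and 18 of its 22 other tested genes were called higher in MHPCs as deposited and none lower, against 8 higher and 9 lower with size factors. The proteasome list had 1 member, PSMA7, and 13 of 13 others were called higher as deposited and 6 of 13 with size factors. The list of chromatin and RNA-processing genes had 4 members, and 6 of 6 others were called higher on both scales. All 4 other genes of the intermediate filament and tubulin list were called higher as deposited and 3 with size factors. Oxidative phosphorylation gave no member from 10 tested genes, of which 6 were called higher as deposited, while with size factors 1 was higher and 7 were lower. Translation factors gave no member from 18, of which 17 were higher and 1 lower as deposited, and 1 higher and 4 lower with size factors. The 10 hepatocyte markers and the 4 endothelial markers were called lower in MHPCs on both scales, as were the 2 markers of blood cells and macrophages.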
